A study of Mus musculus with 202 samples.

Results

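The RNA of single mouse oocytes arrested at metaphase II (MII), the stage at which an egg is ovulated, was measured with Smart-seq2, a full-length method for single cells. Each library was 1 oocyte, and 157 of 202 libraries had at least 100000 counts over genes and at least 4000 genes with a count. These 157 oocytes were ranked by the summed level of 8 genes of the cumulus cells: Vcan, Tnfaip6, Timp1, Spp1, Hsd3b1, Akr1c18, Gja1 and Cyp11a1. Levels are counts scaled to 1000000 gene counts per oocyte (CPM). The 39 oocytes with the highest sums are called rich in cumulus RNA, the 39 with the lowest are called poor, and the other 79 are called middle. The oocytes were thus chosen by measured values of the same libraries that are described below. Rich and poor oocytes were therefore compared as a description of all other genes, within each generation, and no test was made of any difference.

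All mice were C57Bl/6J, and the RNA was polyadenylated. The founding F0 females differed in diet, control (CD) or high in fat and sugar (HFHS). They also differed in hormone, since some were given the androgen dihydrotestosterone (DHT) and others its vehicle (Veh). Oocytes came from the F1, F2 or F3 generation descended from these females, and generation, diet and hormone gave 11 groups. In F1, CD+Veh gave 1 rich and 2 poor oocytes, CD+DHT 2 and 3, HFHS+Veh 7 and 2, and HFHS+DHT 3 and 3. In F2, CD+Veh gave 1 rich and 5 poor oocytes, CD+DHT 1 and 8, HFHS+Veh 1 and 8, and HFHS+DHT 0 and 5. In F3, CD+Veh gave 13 rich and 3 poor oocytes, CD+DHT 2 and 0, and HFHS+Veh 8 and 0. The classes were thus unevenly spread, with 13 rich and 10 poor oocytes in F1, 3 and 26 in F2, and 23 and 3 in F3. The labels used here give no dose, no age and no account of how cumulus cells were taken off the eggs. The number before the point in a title was taken here as the animal, an assumption that the titles do not spell out. Only F3 HFHS+Veh and the F2 groups other than HFHS+DHT have such a number. Oocytes of 1 animal are not independent of each other.

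Titles were used for the groups, and other labels of some samples go against them. All 15 F1 HFHS+Veh oocytes are labelled elsewhere with dihydrotestosterone (7 rich, 2 poor), and all 5 F2 HFHS+DHT oocytes with vehicle (5 poor). Of 20 F2 HFHS+Veh oocytes, 8 are labelled elsewhere as F3 (1 rich, 4 poor), and of 24 F3 HFHS+Veh oocytes, 8 as F2 (4 rich).

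Cumulus cells are granulosa-lineage cells that surround the oocyte and reach it through the zona pellucida by fine projections ending in gap junctions. After the ovulatory surge they lay down a hyaluronan-rich matrix that is held together by versican and the product of Tnfaip6, and they begin to make luteal steroids. They are taken off before single-egg sequencing, and cells or torn projections that stay on the zona carry their RNA into the library. In such a library, more cumulus cells and more RNA per cumulus cell cannot be told apart.

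The rich oocytes lay between 1212 and 53103 CPM of the 8 genes together, and the poor oocytes between 0 and 1.43 CPM. The next oocyte below the rich class had 1180 CPM and the next above the poor class 1.63 CPM, so the middle class filled the whole range between them. Spp1, which encodes the secreted phosphoprotein osteopontin, made up most of the sum, with a median share of 80.2% in the rich oocytes of F1, 86.6% in F2 and 88.5% in F3. Its median level in rich oocytes was 1556 CPM in F1, 1814 CPM in F2 and 2097 CPM in F3. Tnfaip6, which links hyaluronan into the cumulus matrix, had rich medians of 52.4, 18.9 and 8.86 CPM. It had no count in any of the 39 poor oocytes. Gja1, the main gap junction protein of cumulus cells, had rich medians of 79.6, 121 and 19.9 CPM in F1, F2 and F3. Hsd3b1, which makes progesterone, stood at 48.4, 39.8 and 61.8 CPM, and Akr1c18, which inactivates progesterone, at 248, 59.2 and 109 CPM. Tnfaip6 and Gja1 thus had lower medians in the rich oocytes of F3 than in those of F1, and Spp1 and Hsd3b1 higher ones. These are values of the genes that chose the oocytes.

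**Figure D1:**
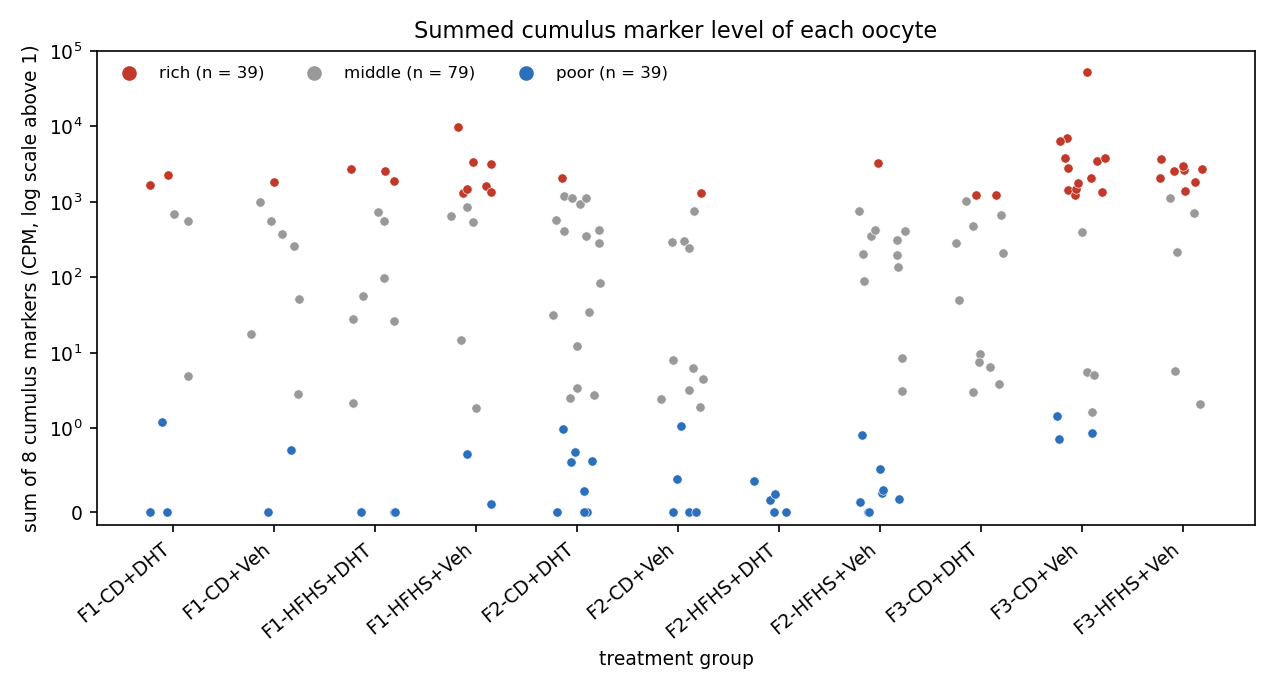
Summed level of the 8 cumulus genes in each of the 157 oocytes (CPM, vertical axis, logarithmic above 1) in the 11 treatment groups (horizontal axis), with rich oocytes in red, middle in grey and poor in blue. Rich oocytes begin at 1212 CPM and 1 F3 CD+Veh oocyte stands alone at 53103 CPM, and poor oocytes end at 1.43 CPM.

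Gene counts per library ranged from 133654 to 13853000 in rich oocytes (median 1692270) and from 184598 to 11111600 in poor oocytes (median 3275600). The order of the classes in depth differed between generations. Median gene counts were 603172 in rich and 412952 in poor oocytes of F1, 3056070 and 4077120 in F2, and 1692270 and 4584160 in F3. Rich oocytes had a median of 9276 genes with a count and poor ones 8200.5 in F1, 9102 and 9689 in F2, and 7578 and 8604 in F3. Spike-in RNA took a median 0.475% of counts in rich and 0.510% in poor oocytes of F1, 0.0774% and 0.0888% in F2, and 0.308% and 0.243% in F3. Over the 157 oocytes, the marker sum had a Spearman rho of -0.20 with gene counts, -0.10 with genes detected and 0.25 with the spike-in share. The part of depth and RNA amount in the results below was not tested.

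A single rich library went against its label as an egg. F3 CD+Veh oocyte 21, which had the highest marker sum, held 309794 gene counts and 14.33% spike-in, and its 9 defining oocyte markers summed to 136 CPM against a median of 10783 CPM over the 157 oocytes. Gdf9, the growth factor that eggs secrete, stood at 67.8 CPM there against a median of 4281 CPM in the other rich oocytes, and Mos, the kinase of the MII arrest, had no count. In its place were Spp1 at 31805 CPM, the progesterone-pathway enzyme gene Cyp11a1 at 3428 CPM and Gja1 at 4109 CPM. Vcan, Timp1 and Akr1c18 were also above their medians in the other rich oocytes. Hsd3b1 and Tnfaip6 went the other way. Hsd3b1 stood at 3.23 CPM against a median of 51.6 CPM in the other rich oocytes, and Tnfaip6 at 0 against 16.4 CPM. Values for F3 include this library unless they are given as without it. Without it, of 20 genes described below as leading, 3 had an F3 fold lower by over 1.5 times, Acsbg1, Sparc and Cpt1a. Among poor oocytes, F1 CD+Veh oocyte 8 was also low in oocyte markers, at 2387 CPM, and without it F1 had 246 genes called higher and 145 called lower.

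A gene counted as tested in a generation where its pooled level reached 10 CPM in the rich or the poor oocytes. It was called where the pooled levels differed at least 2-fold, also without the oocyte that held most of its counts. In F1, 243 of 6393 tested genes were called higher in rich oocytes (3.8%) and 139 lower (2.17%). In F2, 314 of 6472 were called higher (4.85%) and 358 lower (5.53%). In F3, 847 of 6061 were called higher (14%) and 71 lower (1.17%), and without oocyte 21 the higher ones were 773, of which 771 were also called with it. Leaving out single oocytes moved these counts, to 199 higher and 1103 lower in F2 without HFHS+Veh oocyte 5.1, and to 1329 higher in F3 without the poor CD+Veh oocyte 7. The share of higher genes among the calls was 63.6% in F1, 46.7% in F2 and 92.3% in F3. With trimmed-mean scaling (TMM) it was 79.2%, 52.6% and 87.9%. The median log2 fold of all tested genes moved from -0.14 to 0.02 in F1 and from 0.13 to -0.05 in F3 under that scaling.

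Calls were next compared between generations. A gene near 0 in poor oocytes is tested only where rich oocytes lift it to 10 CPM. There it is called higher unless 1 oocyte holds most of its counts. Shared higher calls were thus partly fixed by the filter, and the shares below are descriptions that do not show replication. Of genes tested in both F1 and F2, 136 were called higher in both, which is 69.4% of the 196 in F1 and 74.7% of the 182 in F2, beside 3.04% of all 5990 such genes called higher in F2. F1 and F3 shared 97 higher genes, 82.2% of the 118 in F1 and 14.7% of the 660 in F3, beside 12.2% of all 5423 called higher in F3. F2 and F3 shared 80, which is 76.2% of the 105 in F2 and 12.4% of the 644 in F3, beside 11.99% of all 5371. Without oocyte 21, F1 and F3 shared 85 higher genes (79.4% of 107 in F1) and F2 and F3 shared 69 (72.6% of 95 in F2). Of lower genes, F1 and F2 shared 22 (20.8% of 106 and 6.43% of 342), beside 5.71% of all 5990 called lower in F2. F1 and F3 shared 3 (3.19% of 94), beside 0.830% of all 5423 called lower in F3. F2 and F3 shared 4 (1.35% of 296), beside 0.819% of all 5371. In F3, 16 genes lower in F1 and 31 lower in F2 were called higher, which is 17.02% of 94 and 10.47% of 296. These shares stand beside 12.2% and 11.99% of all genes tested in both that were called higher in F3. No gene was called in opposite directions in F1 and F2. In all 3 generations 58 of 5223 genes were called higher (1.11%), and 0 were called lower (0%). Without oocyte 21, 51 of the 58 were called higher in all 3, and the 7 lost were B4galt1, Cpt1a, F11r, Hipk1, Rpn2, Serpinb6a and Tgif1. Together the 58 genes took a median 0.328% of the gene counts of rich oocytes in F1, 0.630% in F2 and 0.213% in F3. In poor oocytes they took 0.0454%, 0.0529% and 0.0426%, with middle oocytes between, at 0.122%, 0.132% and 0.0627%.

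**Figure D2:**
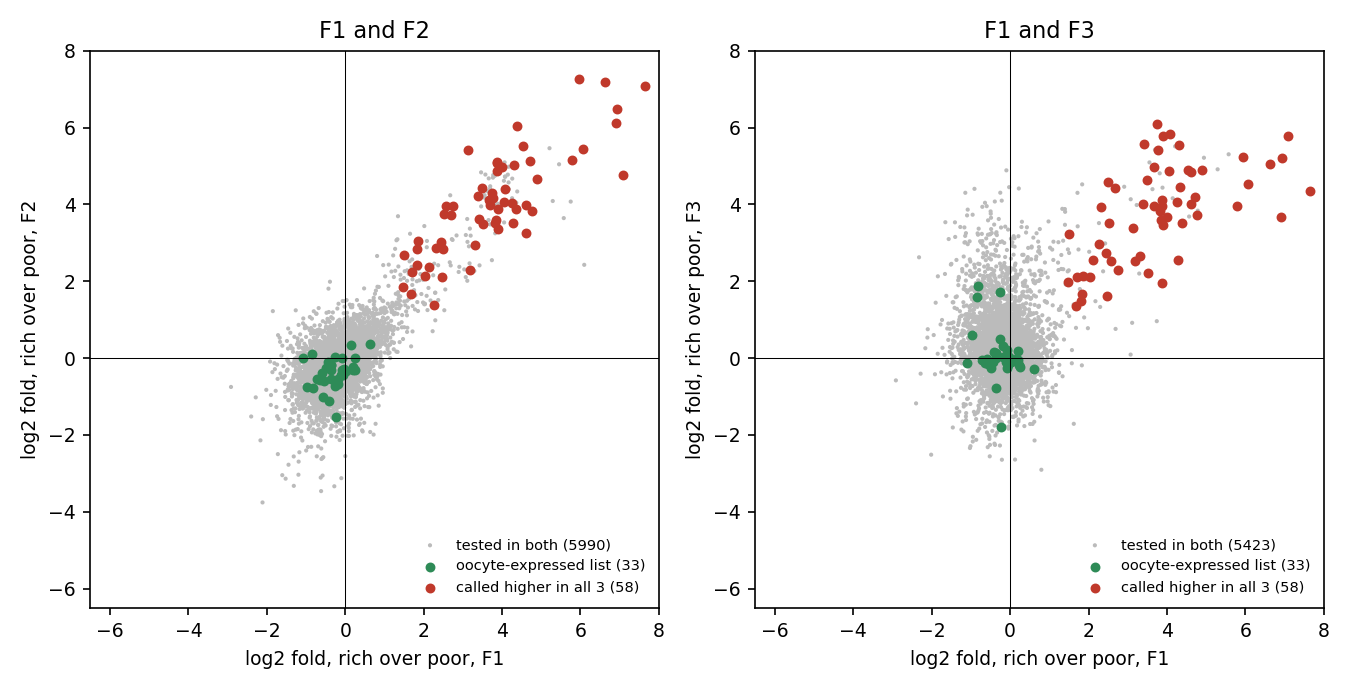
Log2 fold of pooled CPM, rich over poor, for each gene tested in both generations, with F1 on the horizontal axes and F2 (left) or F3 (right) on the vertical axes. The 58 genes called higher in all 3 generations (red) lie at 1 or above on both axes by the rule that chose them. Their lowest log2 fold is 1.36, of Idh1 in F3. The 33 oocyte-expressed genes (green) lie in the mass of genes (grey).

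The genes described first are the 20 of the 58 with the largest smallest log2 fold over the 3 generations. Their folds ran from 3.75 to 7.66 on the log2 scale in F1, from 3.89 to 7.26 in F2 and from 3.95 to 6.08 in F3. These values, with 1 CPM added to both levels, understate the change of genes near 0 in poor oocytes. Of the 20, 7 had no count in any poor oocyte of F1, 5 in F2 and 14 in F3. Single oocytes weighed on the levels, and leaving out 1 oocyte moved the fold by over 1.5 times for 12 of the 20 in F1, 16 in F2 and 9 in F3. F1 HFHS+Veh oocyte 1 did so for 10 and F2 HFHS+Veh oocyte 5.1 for 13, lowering the fold each time. F1 HFHS+Veh oocyte 1 was the highest rich oocyte for 15 of the 20 in F1, F2 HFHS+Veh oocyte 5.1 for 17 in F2, and F3 CD+Veh oocyte 21 for 14 in F3.

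Ctsl, Mgst1, Ephx2 and Gm2a had the largest smallest folds, in that order. Ctsl encodes cathepsin L, a lysosomal cysteine protease that the ovulatory surge is known to induce in granulosa cells (chr13:64359337-64370890, minus strand, GRCm38). In F1 its level in rich oocytes ran from 0 through a median of 48.4 to 134 CPM, with a count in 12 of 13, and all 10 poor oocytes were at 0. In F2 the 3 rich oocytes, CD+Veh oocyte 2 of animal 14, CD+DHT oocyte 9.2 and HFHS+Veh oocyte 5.1, had 111, 102 and 325 CPM, in the order kept below, and 2 of 26 poor oocytes had a count, the highest at 2.76 CPM. In F3 the rich range was 0 to 475 CPM with a median of 33.2, and the 3 poor oocytes had 0, 0 and 0 CPM. The classes met only at 0 in F1 and F3 and did not overlap in F2. The pooled level was at least 430-fold higher in F1 and at least 154-fold higher in F3, set against 3 counts over the poor pool, and 1308-fold higher in F2. A gene on the opposite strand, Gm47123, overlaps Ctsl, and reads of the pair cannot be told apart without strand.

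Gm2a encodes the GM2 activator, a lysosomal protein that lifts gangliosides out of membranes for breakdown (chr11:55098115-55113029, plus strand). In F1 rich oocytes ran from 53.1 through 154 to 2662 CPM and poor ones from 0 through 3.77 to 43.1 CPM, with no overlap. F1 HFHS+Veh oocyte 1, at 2662 CPM, held 66.9% of the rich counts. In F2 the 3 rich oocytes had 86.5, 452 and 232 CPM and the highest of the 26 poor ones 44.3 CPM. In F3 the rich oocytes ran from 0 through 34.0 to 1378 CPM and the 3 poor ones were at 0, 0 and 0. Gm2a had counts in most poor oocytes of F1 (8 of 10) and F2 (23 of 26), and the pooled folds were 172 in F1, 30.5 in F2 and at least 228 in F3.

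A pair of detoxifying enzymes was higher in nearly every rich oocyte. Mgst1 encodes a membrane-bound glutathione transferase (chr6:138140316-138156755, plus strand). In F1 its rich oocytes ran from 31.6 through 79.6 to 405 CPM and 1 of 10 poor oocytes had a count, at 0.929 CPM. In F2 the rich values were 64.6, 87.0 and 250 CPM and the poor oocytes reached 6.34 CPM. In F3 the rich oocytes ran from 5.32 through 24.9 to 675 CPM and the poor ones were at 0, 0 and 0. No rich oocyte fell among the poor in any of the 3 generations, and the pooled fold was 760 in F1, 293 in F2 and at least 153 in F3.

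Ephx2 encodes soluble epoxide hydrolase, which turns epoxides of fatty acids into diols (chr14:66084374-66124500, minus strand). In F1 its rich oocytes ran from 46.9 through 109 to 373 CPM and the poor ones from 0 through 0 to 13.8 CPM. In F2 the rich values were 73.1, 104 and 574 CPM and the poor maximum was 4.96 CPM. In F3 the rich oocytes ran from 12.02 through 117 to 8115 CPM, the highest being oocyte 21, and the next highest had 593 CPM. The 3 poor oocytes of F3 had 0.436, 0.377 and 21.9 CPM, and 21 of 23 rich oocytes were above all 3. The pooled fold was 239 in F1, 380.5 in F2 and 39.4 in F3. On the log2 scale the F3 fold of 5.05 went to 4.69 without oocyte 21 and to 7.18 without the poor CD+Veh oocyte 16. The F2 fold of 7.18 went to 5.77 without oocyte 5.1.

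**Figure D3:**
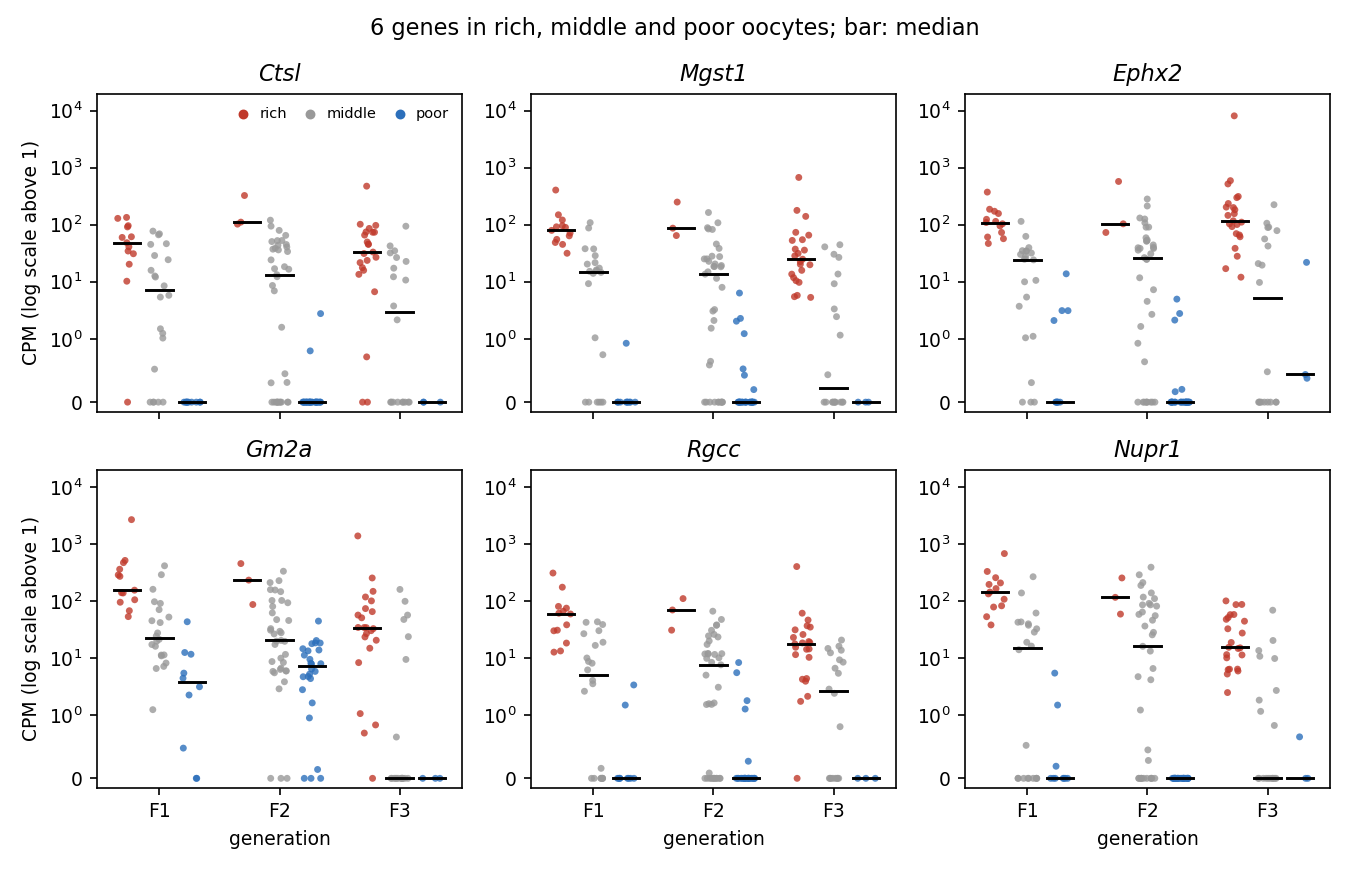
Level of 6 genes in each oocyte (CPM, vertical axes, logarithmic above 1) by generation (horizontal axes), with rich oocytes in red, middle in grey and poor in blue, and a bar at each median. Rich medians lie above poor medians in all panels, most poor oocytes sit at 0 except for Gm2a in F1 and F2 and Ephx2 in F3, and middle oocytes span the range between.

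Promoters are shown for the first 3 genes of the order that have an entry in RefSeq's tables, Ctsl, Mgst1 (the first of 2 entries) and Gm2a, so that a reader can see what lies upstream of genes that stood highest together. Ltbp1 and Sgk1, both among the 58, are shown as members that hold a searched motif. Each run covers 250 bases before to 50 after the annotated start on GRCm38.p6, 5′ to 3′ on the gene's strand, and capitals mark the motif. The coordinates are chr13:64370471-64370770, chr6:138140277-138140576, chr11:55097735-55098034, chr17:75005279-75005578 and chr10:21985854-21986153 in the same order.
Ctsl promoter: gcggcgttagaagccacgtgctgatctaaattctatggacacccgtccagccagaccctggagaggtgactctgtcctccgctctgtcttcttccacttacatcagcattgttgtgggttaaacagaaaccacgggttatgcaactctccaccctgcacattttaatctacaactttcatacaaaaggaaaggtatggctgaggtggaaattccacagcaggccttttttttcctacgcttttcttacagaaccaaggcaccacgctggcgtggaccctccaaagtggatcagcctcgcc
Mgst1 promoter: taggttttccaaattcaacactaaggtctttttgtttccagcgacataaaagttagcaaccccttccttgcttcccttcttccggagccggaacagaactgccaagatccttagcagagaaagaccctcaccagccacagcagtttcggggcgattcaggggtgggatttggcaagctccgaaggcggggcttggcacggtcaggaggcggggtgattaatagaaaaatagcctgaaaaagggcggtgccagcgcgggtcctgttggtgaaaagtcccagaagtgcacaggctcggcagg
Gm2a promoter: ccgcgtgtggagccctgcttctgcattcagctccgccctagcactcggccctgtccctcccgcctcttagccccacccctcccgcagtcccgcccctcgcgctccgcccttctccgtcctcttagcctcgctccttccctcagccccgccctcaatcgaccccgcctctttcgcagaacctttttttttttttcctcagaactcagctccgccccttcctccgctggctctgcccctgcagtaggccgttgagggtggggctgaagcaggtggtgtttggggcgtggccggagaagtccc
Ltbp1 promoter, cyclic AMP element in capitals: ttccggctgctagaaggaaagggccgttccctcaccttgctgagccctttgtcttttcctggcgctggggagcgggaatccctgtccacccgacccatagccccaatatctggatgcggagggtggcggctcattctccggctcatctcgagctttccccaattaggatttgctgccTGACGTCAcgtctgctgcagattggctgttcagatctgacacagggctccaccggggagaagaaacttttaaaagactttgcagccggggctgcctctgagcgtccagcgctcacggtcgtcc
Sgk1 promoter, steroidogenic factor core in capitals: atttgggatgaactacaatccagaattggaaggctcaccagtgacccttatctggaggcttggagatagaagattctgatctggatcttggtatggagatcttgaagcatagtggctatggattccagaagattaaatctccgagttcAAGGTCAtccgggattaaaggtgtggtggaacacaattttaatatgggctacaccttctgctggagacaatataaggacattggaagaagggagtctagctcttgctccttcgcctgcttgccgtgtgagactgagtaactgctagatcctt

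A search of these windows covered 3 motifs on both strands. The SF-1 core AAGGTCA, bound by the steroidogenic factor of granulosa cells, was in 4 of 60 promoters (6.67%) of the 41 higher genes with an entry, both of Sgk1 and those of Rpn2 and Tgif1, and in 4.72% of all 32851 promoters. The cyclic AMP element TGACGTCA was in 1 of the 60 (1.67%), that of Ltbp1 at position -73 from the start, and in 1.79% of all promoters. The AP-1 element TGAGTCA was in 5 of the 60 (8.33%), those of Aldoa, Anxa2, Cald1, Clic1 and F11r, and in 5.202% of all promoters. Ctsl, Mgst1 and Gm2a held none of the 3 in these windows. With 4, 1 and 5 promoters behind them, these shares are given as descriptions.

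Iron and stress genes followed. Slc40a1, the iron exporter ferroportin, had no count in any of the 39 poor oocytes. Its rich oocytes in F1 ran from 1.84 through 10.9 to 90.5 CPM, all 13 with a count, and its pooled level was at least 202-fold higher. In F2 the rich values were 25.62, 0 and 47.4 CPM, and in F3 13 of 23 rich oocytes had a count, with a median of 6.68 and a maximum of 311 CPM. Trf, the iron carrier transferrin, had rich medians of 6.14 CPM in F1, 12.01 CPM in F2 and 2.12 CPM in F3, and poor medians of 0. Nupr1, a small chromatin protein that cells induce under stress (chr7:126623249-126630861, minus strand), ran in rich oocytes of F1 from 37.9 through 143 to 676 CPM and reached 5.42 CPM in poor ones. In F2 its rich values were 58.7, 116 and 253 CPM and all 26 poor oocytes were at 0. In F3 rich oocytes ran from 2.47 through 15.4 to 100.1 CPM against 0.654, 0 and 0 CPM in the poor. The pooled fold of Nupr1 was 1053 in F1, at least 4766 in F2 and 103 in F3 (95% counting interval 35.2 to 500.1). The classes did not overlap for Nupr1 in any generation, and its rich median in F3 was far below those of F1 and F2. Rgcc, a regulator of the cell cycle (chr14:79288756-79301645, minus strand), had rich medians of 59.0, 69.4 and 17.7 CPM in F1, F2 and F3, and poor pools at 0.548 CPM in F2 and 0 CPM in F3.

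Genes of the extracellular matrix and of secreted regulators made up a further group. Lox, lysyl oxidase, which cross-links collagen and elastin, ran from 0.427 through 32.4 to 47.7 CPM in rich oocytes of F1 against 0 in all 10 poor ones. It had 32.1 CPM at most in the rich oocytes of F2, and a median of 5.67 CPM in those of F3, where oocyte 21 had none. Ltbp1, which holds latent TGF-beta in the matrix, had rich values of 42.7, 40.6 and 57.3 CPM in F2 and rich medians of 9.97 CPM in F1 and 8.57 CPM in F3. Its fold in F2, on 3 counts in poor oocytes, was 1639 (95% counting interval 557 to 7979). Sparc, a matrix glycoprotein, had rich medians of 17.45, 15.7 and 6.22 CPM. Oocyte 5.1 alone held 90.1% of its rich counts in F2, and without oocyte 21 its pooled F3 level went from 19.06 to 11.4 CPM. Bmper, which binds bone morphogenetic proteins, had rich medians of 4.97, 7.53 and 16.6 CPM. Inha, the alpha subunit of inhibin that granulosa cells secrete, had no count in any of the 39 poor oocytes, and rich medians of 7.48, 2.94 and 4.003 CPM. Nt5e, an enzyme of the cell surface that makes adenosine, had rich medians of 6.32, 18.8 and 9.68 CPM and 1 count in the poor pool of F1. In F2, oocyte 5.1 also held 94.0% of the rich counts of Inha. Leaving out 1 oocyte moved the fold of Lox by over 1.5 times in no generation, and that of Ltbp1 in F1 and F3 but not in F2.

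Lipid enzymes, a filament protein and genes with other roles closed the 20. Cpt1a, which carries fatty acids into mitochondria, had rich values of 28.8, 26.505 and 51.8 CPM in F2 and a rich median of 8.68 CPM in F1. In F3 its rich median was 1.66 CPM with 1314 CPM in oocyte 21, and its pooled level without that library was 8.27 CPM, below the minimum for testing. Acsbg1, a fatty acyl-CoA synthetase known from steroid-making cells and brain, had 6462 CPM in oocyte 21, a rich median of 0 CPM in F3, and log2 folds there of 5.84 with that library and 4.56 without it. Vim, the filament protein vimentin, had rich medians of 11.7, 11.5 and 13.9 CPM and poor medians of 0. Atxn10 had rich medians of 15.6, 16.5 and 21.4 CPM, and Wbp5 54.7, 86.1 and 13.21 CPM. Atxn10 and Lox also overlap a gene on the opposite strand. So do several genes named below, such as Runx1, Fst, Tpm4, Aldoa, Thbs1, Cd52 and Cox4i1.

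Non-overlap was rare among all genes. Every rich oocyte was above every poor one for 15 of the tested genes in F1 (0.235%), 100 in F2 (1.55%) and 7 in F3 (0.115%). Of the 20 named genes, which were chosen for their fold in the same libraries, 8, 12 and 3 did so. The rich median was above the middle median for all 20 in F1 and F2 and for 19 in F3. The middle median was above the poor median for 10 of the 20 in F1, 12 in F2 and 7 in F3, and for the others both were 0.

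The middle oocytes took no part in the choice of the classes beyond lying between them. The 5 genes most like the marker sum over all 157 oocytes, among 5955 with a mean of at least 10 CPM, were Ephx2, Mgst1, Rgcc, Nupr1 and Ctsl. Their Spearman rho with the sum was 0.86, 0.83, 0.80, 0.80 and 0.80, and within the 79 middle oocytes 0.81, 0.80, 0.73, 0.76 and 0.76. Their rho with the number of genes detected was between 0.04 and 0.18. Points share a library with the sum, and oocytes share animals, so these are descriptions.

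**Figure D4:**
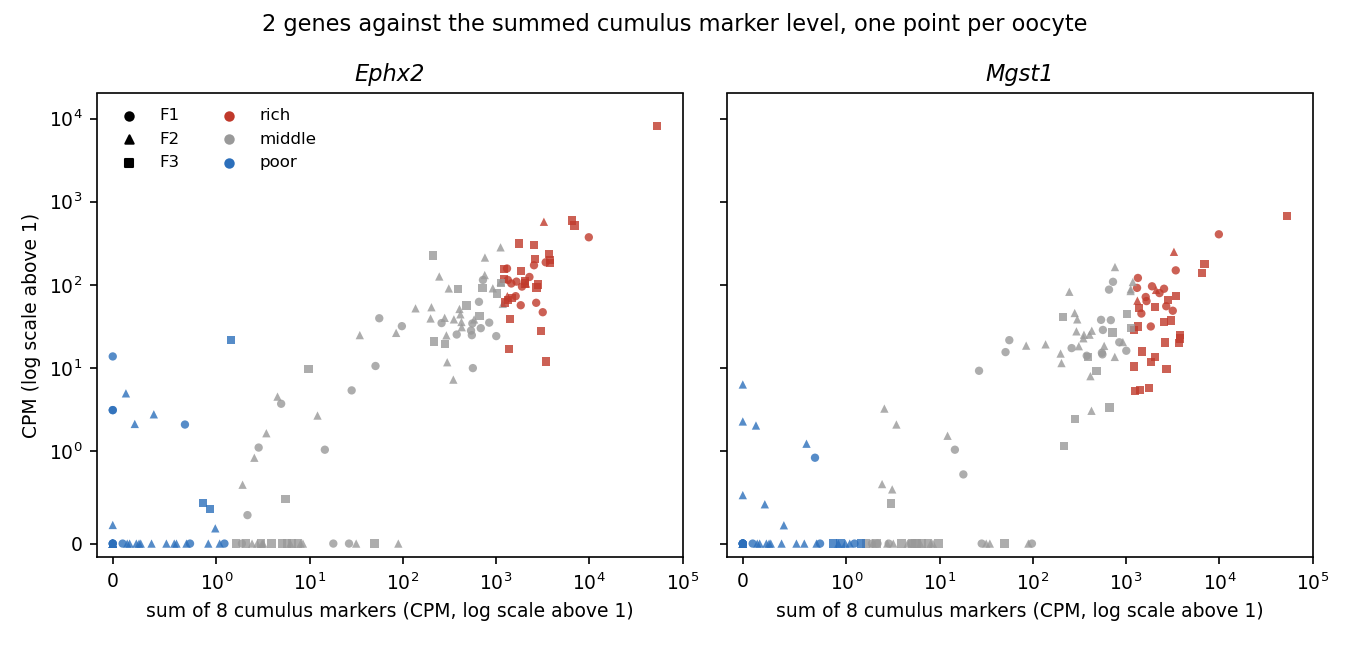
Level of Ephx2 (left) and Mgst1 (right) in each of the 157 oocytes against the summed level of the 8 cumulus genes, both in CPM and logarithmic above 1, with generation by shape and class by colour. Both genes lie at or near 0 in most poor oocytes and climb with the sum through the middle (grey) and rich (red) oocytes.

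Genes were also grouped by role. A list's count stands beside the share of all tested genes called higher, 3.8% in F1, 4.85% in F2 and 14% in F3, and the 8 markers were taken out. A low gene is tested only where 1 class lifts it over 10 CPM, so members that cumulus RNA alone brings in had to differ. The shares below are therefore given as descriptions and support nothing about a list. Of 33 genes of cumulus expansion and the ovulatory response, 10 were tested in F1, 13 in F2 and 10 in F3, and 4, 6 and 6 of them were called higher. Ctsl and Lox were called in all 3. Ptgs2, the prostaglandin synthase that the surge induces, had log2 folds of 2.14, 2.397 and 4.41, and reached 10 CPM in F3 alone, at 20.2 CPM pooled over rich oocytes with 2285 CPM in oocyte 21. Without that library it had 7.35 CPM in F3 and was below the minimum. Runx1, a transcription factor of the ovulatory response, had log2 folds of 2.89, 4.502 and 3.07, and reached 10 CPM in F2 alone, at 21.9 CPM. Has2, the hyaluronan synthase, stayed below 10 CPM in both classes of all 3 generations. No member of the list was called lower in any generation, and the median log2 fold of tested members was 1.22, 1.67 and 2.83. Without oocyte 21, 4 of 8 tested members were called higher in F3 and the median was 1.395, beside 773 of all 5994 genes.

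Granulosa and luteal genes of steroid synthesis gave 6 of 15 higher in F1, 5 of 16 in F2 and 6 of 14 in F3, of 33 in all. Inha, Fst and Abca1 were called in all 3. Fst, which binds and blocks activin, had pooled rich levels of 15.7, 30.4 and 11.7 CPM, and Abca1, the cholesterol exporter, 13.9, 11.7 and 57.9 CPM. In each generation 1 library weighed heavily on Abca1, which stayed at least 2-fold higher without it. The log2 fold of Abca1 went from 3.90 to 1.94 without oocyte 1 in F1 and from 3.35 to 1.36 without oocyte 5.1 in F2. In F3 it went from 5.77 to 3.77 without CD+DHT oocyte 15. Sfrp4, a secreted inhibitor of Wnt signalling, reached 38.2 CPM in F1 and 29.2 CPM in F3 and had no count in poor oocytes. It was not called in F2, where 1 oocyte held all its counts at 53.2 CPM. Star, which feeds cholesterol to steroid synthesis, reached 10 CPM in F1 alone, at 11.7 against 0.707 CPM, and had log2 folds of 2.898, 1.75 and 2.87.

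Somatic surface, matrix and cytoskeleton genes gave 15 of 28 higher in F1, 16 of 33 in F2 and 11 of 22 in F3, of 39. Vim, Anxa2, Sparc and Tpm4 were among those called in all 3. Tpm4, a tropomyosin of the actin cytoskeleton, had pooled rich levels of 25.26, 29.6 and 46.8 CPM against 1.46, 1.47 and 0 CPM. Thbs1, a matrix glycoprotein, was called in F2 and F3, at 22.08 and 26.57 CPM, and reached 8.25 CPM in F1. Glycolysis genes gave 3 of 9, 2 of 10 and 7 of 11, of 20, and 5 of 10 in F3 without oocyte 21. Aldoa was called in all 3, at 58.7, 80.4 and 43.1 CPM against 3.68, 3.68 and 0.394 CPM. In F2 the log2 fold of Aldoa went from 4.12 to 1.84 without oocyte 5.1. Ldha, which turns pyruvate to lactate, was called in F1 and F3, at 31.2 and 36.2 CPM against 0.0471 and 0 CPM, and had 21.2 CPM in F3 without oocyte 21. In F2 its log2 fold went from 4.67 to 0.65 without oocyte 5.1. Cumulus cells are known to carry out glycolysis and hand pyruvate to the egg.

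Other lists had fewer tested members. The TGF-beta family response gave 3 of 12, 4 of 14 and 3 of 11. Skil, a repressor that TGF-beta induces, was called in all 3, with rich medians of 48.5 CPM in F1 and 0.591 CPM in F3 and rich values of 190.0, 212 and 104 CPM in F2. Immediate early and stress genes gave 2 of 6, 3 of 9 and 2 of 4, with the glucocorticoid-induced kinase Sgk1 called in all 3 at 62.9, 68.6 and 84.5 CPM pooled. Glutathione and antioxidant genes gave 2 of 18, 4 of 18 and 3 of 14. Mgst1 and Ephx2 were the 2 in F1, and both were called in all 3. Ribosomal protein genes gave 4 of 15, 7 of 26 and 1 of 4, of 85, and nuclear subunits of the respiratory chain 15 of 56, 17 of 59 and 5 of 19, of 83, with 3 of 18 in F3 without oocyte 21. Cox4i1 of complex IV was called in F1 and F2, at 30.5 against 3.72 CPM and at 40.8 against 3.96 CPM. Many ribosomal genes have near-identical copies, so their counts are uncertain. Cholesterol synthesis gave 0 of 8, 0 of 9 and 1 of 11, the last being Scap, counts too small to set apart from the share of all genes. Fdps, which makes farnesyl diphosphate, stayed below 10 CPM in both classes with log2 folds of 2.82, 2.46 and 2.25.

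**Figure D5:**
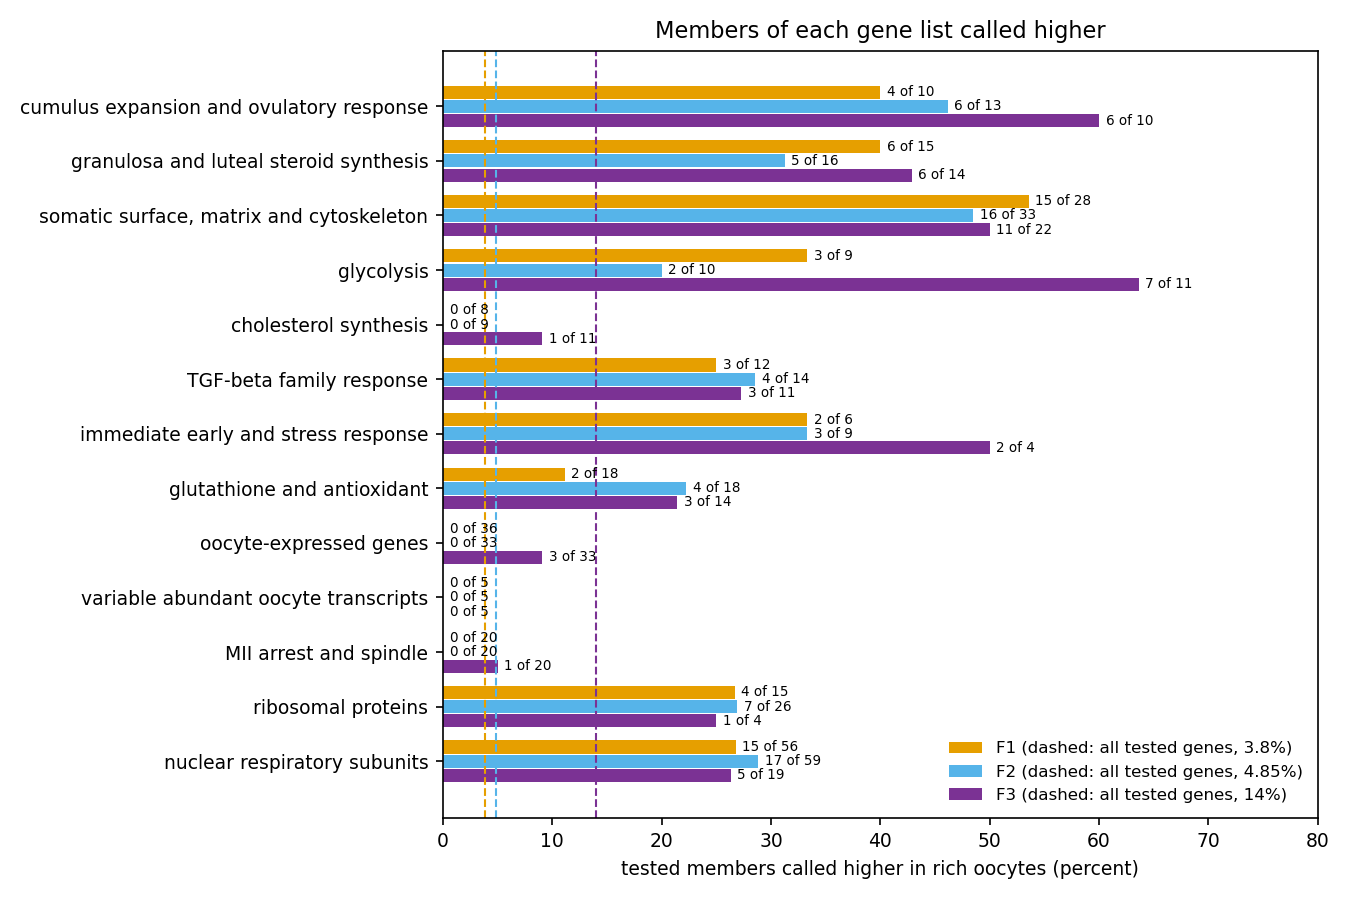
Percent of the tested members of each list called higher in rich oocytes, by generation, with the counts beside the bars and dashed lines at the share of all tested genes (3.8% in F1, 4.85% in F2 and 14% in F3). The bars cover only members that reached 10 CPM in either class, such as 10 of 33 cumulus genes in F1, and F3 bars include oocyte 21.

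Genes of the egg itself were called in counts too small to set apart from the share of all tested genes. Of 40 oocyte-expressed genes, 36 were tested in F1, 33 in F2 and 33 in F3. None was called higher in F1 or F2, and Tle6, Lhx8 and Gja4 were called higher in F3, beside 3.8%, 4.85% and 14% of all tested genes. In F1 7 of the 36 and in F2 7 of the 33 had a log2 fold above 0, and in F3 13 of the 33. Pou5f1 was called lower in F1, Nobox and Sohlh2 in F2, and Sohlh2 in F3, beside 2.17%, 5.53% and 1.17% of all tested genes. The median log2 fold of the list was -0.36, -0.32 and -0.05 beside -0.14, -0.06 and 0.13 for all tested genes, and with TMM scaling it was -0.21, -0.25 and -0.22. With equal weight per oocyte the list's median in F3 was 0.0041. Gdf9 had log2 folds of -0.96, -0.74 and 0.61. Bcl2l10, an abundant survival gene of the egg, had rich medians of 12704, 8168 and 6167 CPM and poor medians of 11740.5, 9333 and 6398 CPM. The ranges of the classes overlapped. The 9 defining oocyte markers summed to medians of 10680 CPM in rich and 13259 CPM in poor oocytes of F1, 6675 and 10372 CPM in F2, and 9157 and 8788 CPM in F3. Of 20 tested genes of the MII arrest and spindle in each generation, 0 were called in F1, and Cdk1, Plk1 and Aurka were called lower in F2, 3 of 20 beside 5.53% of all tested genes. With classes set within each generation, or by mean rank over the markers, the log2 fold of Aurka in F2 turned from -1.10 to 0.013 and 0.11. In F3 Kif11 was higher and Bub1 lower, 1 of 20 each, beside 14% and 1.17% of all tested genes.

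Insig1, Jag1, Tmf1 and Paip1, abundant transcripts that vary widely between oocytes, were not called in any generation. Paip1, which takes part in translation, had rich medians of 11175 CPM in F1 and 21040.5 CPM in F2 against poor medians of 7606 and 9107 CPM. The list of 5 had median log2 folds of 0.90, 0.88 and 0.32. Its summed level had rich medians of 32529 CPM in F1 and 62482 CPM in F2, and only 1125 CPM in F3. Its summed level in poor oocytes of F2 ran from 9669 to 126768 CPM, a range that held all 3 rich oocytes.

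Markers of other cell types were summed in each class. The 7 defining leukocyte markers summed to a median of 3.44 CPM in rich and 4.97 CPM in poor oocytes of F1, 0 and 0 in F2, and 0 and 0 in F3, and the highest rich oocyte had 180 CPM. Ptprc, Cd74, C1qa, Tyrobp and Fcer1g had no count in rich oocytes of F3. The 6 endothelial markers summed to medians of 99.7 CPM in rich and 105 CPM in poor oocytes of F1, 58.3 and 92.1 CPM in F2, and 149 and 126 CPM in F3, and Emcn had no count in either class. The 7 theca and stroma markers summed to medians of 4.21 and 0.746 CPM in F1, 0.267 and 1.71 CPM in F2, and 1.58 and 0 CPM in F3, with a range of 0 to 36.2 CPM in rich oocytes. Globin genes Hba-a1 and Hba-a2 had no count in either class. The 6 oviduct markers summed to medians of 7.48 CPM in rich and 2.91 CPM in poor oocytes of F1, 8.54 and 2.47 CPM in F2, and 15.6 and 1.31 CPM in F3, with a highest of 139 CPM, and Foxj1 and Pax8 had no count in either. Krt18, a keratin in that list, had no count in any poor oocyte and 15.5, 23.5 and 6.38 CPM pooled over rich oocytes. In F2 its log2 fold went from 4.62 to 1.02 without oocyte 5.1. The other oviduct genes of highest mean CPM did not rise alike. Cdh1 had log2 folds of -0.147, 0.369 and 0.352 in F1, F2 and F3. Cldn4 had -0.458, -0.714 and -0.346, and Epcam -0.725, -0.071 and 0.874. Of 13 oviduct genes, 2 were tested in each generation, and 1, 1 and 0 were called higher. All tested genes had 3.8%, 4.85% and 14%. Of 14 leukocyte genes, only 2 were tested in F1, 1 in F2 and 1 in F3, and the others stayed below the minimum. Cd52 alone was called, in F1 at 13.25 against 0 CPM and in F2 at 27.8 against 0.0189 CPM. That is 1 of 2 and 1 of 1, beside 3.8% and 4.85% of all tested genes. Laptm5, Cd68 and Lyz2, the other leukocyte genes of highest mean CPM, differed from Cd52. Laptm5 had log2 folds of -0.365, -0.055 and -0.529 in F1, F2 and F3, and Cd68 -0.695, -0.579 and 1.095. Lyz2 had -0.107, 1.286 and 3.359, and its F3 fold was 0.132 without CD+Veh oocyte 22. The part of oviduct cells in the differences was not tested.

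Genes called lower in rich oocytes were held in common by few generations. In 1 generation 510 genes were called lower, in 2 generations 29 and in all 3 generations 0, beside 952, 139 and 58 for the higher side. Those with the largest smallest fold among the 29, named after their values were seen, were Pkhd1, Tmem39b and Pias4. Pkhd1, the gene of fibrocystin, had 3.64 against 10.9 CPM in F1, 1.23 against 5.87 CPM in F2 and 17.8 against 45.3 CPM in F3. Pkhd1 and Tmem39b stayed below the minimum of 10 CPM in F2 and were not tested there. Pias4, a ligase of the SUMO pathway, had 6.31 against 37.5 CPM in F1, 6.06 against 19.25 CPM in F2 and 13.07 against 30.8 CPM in F3, where it was not called. As each oocyte of a class was left out in turn, the number of lower genes ran from 68 to 239 in F1, from 329 to 1103 in F2 and from 67 to 102 in F3. In F1 it was 239 without HFHS+Veh oocyte 2, 233 without CD+DHT oocyte 6, 91 without HFHS+Veh oocyte 6 and 68 without HFHS+Veh oocyte 11.

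Most treatment groups held few oocytes of a class, and differences between groups were not tested. Among rich oocytes of F1, Ephx2 had a median of 114 CPM in HFHS+Veh (n = 7), 95.3 CPM in HFHS+DHT (n = 3), 117 CPM in CD+DHT (n = 2) and 56.9 CPM in the 1 oocyte of CD+Veh. In F3 it had 156 CPM in CD+Veh (n = 13), 128 CPM in HFHS+Veh (n = 8) and 89.3 CPM in CD+DHT (n = 2). The ranges overlapped between all groups of more than 1 oocyte.

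In F2 each rich oocyte had sisters from the same animal, if the number in the title is the animal. Those of CD+Veh oocyte 2 of animal 14, which had a marker sum of 1321 CPM, had sums of 293, 3.18 and 1.09 CPM. Ctsl stood at 111 CPM in that oocyte and at 43.6, 0 and 0 CPM in its sisters, in the same order. CD+DHT oocyte 9.2 had a marker sum of 2094 CPM, and its sisters 353, 1121, 0.594 and 0.615 CPM. Ephx2 stood at 104 CPM in it and at 38.4, 108, 0 and 0 CPM in the sisters. HFHS+Veh oocyte 5.1 had a marker sum of 3257 CPM and its sisters 425, 759, 137 and 311 CPM. Ephx2 was 574 CPM in it and 35.8, 213, 52.2 and 90.5 CPM in the sisters. Ctsl was 325 CPM in it and 18.4, 65.0, 79.6 and 52.7 CPM in the sisters, so it did not follow the sum among them. Nupr1 was higher in a middle sister than in the rich oocyte in animals 14 and 5, but not in animal 9. The values were 85.2 against 58.7 CPM and 287 against 253 CPM. Oocytes of 1 animal thus reached from the rich class to sums near 1 CPM in CD+Veh and CD+DHT, and there Ctsl and Ephx2 were at 0 in the sisters with the lowest sums. Both animals held poor oocytes too, 1 in animal 14 and 2 in animal 9. Between rich and poor oocytes within animal 14, Ctsl had a log2 fold of 6.81, Mgst1 6.04, Ephx2 6.21 and Gm2a 4.03. Within animal 9 the folds were 6.69, 5.78, 6.71 and 3.78. Of the 20 leading genes, 13 were at least 2-fold higher in both animals, beside 5.84% of the 6472 tested genes. These oocytes are also in the F2 classes, so this is no independent support.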

How the data were processed

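The authors deposited raw counts per gene symbol for 202 single-oocyte Smart-seq2 libraries. Per the submitters' processing notes, the tools were STAR 2.4.2a and Seurat 2.0 with build mm10. How reads were counted, on which annotation and whether by strand is not given in the sources used here. A total of 24489 gene lines gave 23995 symbols (494 repeated lines were summed), and 92 spike-in lines stayed out of library sizes. The RPKM values deposited by the authors served as an alternative. The natural log values that the authors deposited were read only for which oocytes they hold, 34 of 39 rich, 70 of 79 middle and 30 of 39 poor.

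Counts were summed over the rich and the poor oocytes of each generation and scaled to CPM. Log2 folds added 1 CPM to both levels. Intervals are exact Poisson at 95.0%, and folds against no count use 3 counts over the poor pool. Intervals and floors cover counting error only, since there were no molecular identifiers. Oocytes are single cells, so no p-value was computed. Within F2, rich and poor oocytes with the same title number, taken as the same animal, were also compared. The members, gene lists and named genes were chosen with earlier results of these data known. Named were the 20 genes called higher in F1, F2 and F3 with the largest smallest log2 fold, and the 4 members per list with the largest such value, or the highest mean CPM in lists of oocyte and other cell types. Of the 20, 1 is not reported here by itself. A further 113 date-like or merged symbols were not named. Positions are those of GENCODE on GRCm38, and 19 of the 20 named genes had one. Promoters are RefSeq's on GRCm38.p6. Calculations used Python 3.11.15 with pandas 2.3.3 and scipy 1.17.1, and edgeR 4.0.16 in R 4.3.3 for TMM factors alone. The scripts were tested on simulated data.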

Additional observations from a re-analysis of the deposited data

Results flagged for a closer look

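Within treatment groups of 4 to 10 oocytes of a class, 34 sets of values were checked for an oocyte far from the others, and 6 had one. The sets share oocytes, and the genes among them were chosen for their levels in these libraries. The 6 are therefore not set against a chance rate. Of the 7 rich F1 HFHS+Veh oocytes, oocyte 1 stood far above the others for 4 of the named genes. It had Mgst1 at 405 CPM (next 149), Ephx2 at 373 CPM (next 187), Gm2a at 2662 CPM (next 469) and Slc40a1 at 90.5 CPM (next 35.0). It also had the second highest marker sum, 9875 CPM. Of the 8 poor F2 CD+DHT oocytes, oocyte 6.3 had the most genes with a count, 11979 against 9197 for the next. Of the 5 poor F2 HFHS+DHT oocytes, oocyte 4 had 10869 against 10047.

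Among the 45 libraries left out for low depth, 18 had a marker sum at or above the lowest of the rich oocytes. Their gene counts ran from 615 through a median of 4769 to 98791, and their median marker sum was 2832 CPM. With so few counts, a CPM value carries a wide counting error.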

How the results depend on the processing

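The counts of genes called were 243 higher and 139 lower in F1, 314 and 358 in F2, and 847 and 71 in F3. With a minimum of 1 CPM they were 796 and 312 in F1, 585 and 1066 in F2, and 1867 higher in F3. Equal weight per oocyte gave 35 lower in F1. TMM gave 81 lower in F1 and 108 in F3. A minimum of 500000 counts and 6000 genes per oocyte gave 284 lower in F1 and 108 in F3. Classes set within each generation gave 280 lower in F1, 100 higher and 2 lower in F2, and 543 higher and 250 lower in F3. They shared 25 rich and 29 poor oocytes with the main classes and held 16 rich oocytes in F2. A ranking by mean rank over the markers gave 27 lower in F1, 207 higher and 2 lower in F2, and 127 lower in F3. That ranking gives Spp1 no more weight than the other markers. It kept 25 of the 39 rich and 32 of the 39 poor oocytes, and put 10 oocytes of F2 in the rich class. Equal-weighted RPKM gave 125 and 6 in F1, 180 and 106 in F2, and 350 and 35 in F3. Within treatment groups F1 had 80 lower. Without oocytes with conflicting labels, an alternative chosen after the data were seen, F2 had 1178 lower. Oocyte 5.1 is among those left out there, and leaving out oocyte 5.1 alone gave 1103 lower. Leaving out 1 oocyte at a time gave 162 to 296 higher and 68 to 239 lower in F1, 199 to 362 and 329 to 1103 in F2, and 750 to 1329 and 67 to 102 in F3. The cause of these shifts was not tested, except that the 1 CPM minimum tests more genes.

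Of 680 alternative values of the 20 named genes, 678 stayed at a log2 fold of at least 1. The 20 were chosen for large folds in much the same oocytes, so that bar was low. Of the 680, 77 moved by at least the standard deviation among rich oocytes, 45 of them with 0.1 CPM added instead of 1. Genes called higher in all 3 generations numbered 24 with RPKM (9 of the 20 among them), 50 with classes set within each generation (13 of the 20) and 178 with the 1 CPM minimum. Aurka in F2 went from -1.10 to 0.013 with classes set within each generation and to 0.11 with mean rank. No value could be had within treatment groups in F2, where no group held 2 rich and 2 poor oocytes, or with counts thinned to 100000 in F3, which left no poor oocyte. Pairing by animal, a replicate block added after the data were seen, was possible in the 2 F2 animals with both classes and gave 378 genes higher and 277 lower in both animals. It held 13 of the 20 named genes, and the 2 values under 1 (lowest 0.599, Bmper) came from it. Those values are means of the 2 animals. In single animals, the lowest log2 fold of a named gene was -1.89 in animal 14 and 0 in animal 9. F2 rests on 3 rich and F3 on 3 poor oocytes.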

Other observations

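Some genes of the 58 differed in level between the rich oocytes of the generations. Skil had rich medians of 48.5 CPM in F1 and 0.591 CPM in F3, and Nupr1 143 and 15.4 CPM, while Ephx2 had 109 and 117 CPM. These differences between generations were not tested, and generation cannot be told apart from the treatment groups and libraries that make up each one.

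F3 CD+Veh oocyte 21 held further genes far above the other rich oocytes: Tsc22d1 at 16530.3 CPM against a highest of 1701 CPM among the others, Idh1 at 14455 against 1708 CPM, and Serpine2 at 12153 against 2747 CPM. Slc40a1, Lox, Nt5e and Tnfaip6 had no count there. It is 1 library with 309794 gene counts.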
